A study of Mus musculus with 9 samples.

Results

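The miR-30 family was followed in the tibialis anterior (TA) muscle through 9 of its mature arms, taken by name from the count tables. These were the 5p arms of miR-30a to miR-30e (5 arms) and 4 3p arms, those of miR-30a, miR-30d and miR-30e and of the hairpin miR-30c-2. They are 9 of the 1915 mature miRNAs listed in each count table and 9 of the 304 whose count exceeded 32 in 1 or more libraries, which are called expressed here. The remaining miR-30 arms of the tables, miR-30b-3p, miR-30c-1-3p and miR-30f, were also expressed and are given beside the 9.

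Small RNA libraries from 4 control mice and 5 LLC mice were compared. LLC (Lewis Lung Carcinoma) is a mouse lung carcinoma cell line that grows as a tumor under the skin and causes cachexia, a loss of muscle and fat. The LLC mice received 750000 cells in each flank and were studied 22 days later, and the control mice received PBS alone. All were male mice, given as C57BL/6J at 10 weeks of age in the sample labels and as C57BL/10 at 8 weeks in the description of the series, and a sixth LLC library was not analysed here.

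A miRNA hairpin is cut into 2 strands, the 5p and the 3p arm, and usually one of them is loaded into Argonaute and kept while the other decays. Bases 2 to 8 of the loaded strand, the seed, pair with target mRNAs, so arms with one seed share most of their targets. The miR-30 family is abundant in heart and skeletal muscle and is known for targets in differentiation, autophagy and connective tissue growth.

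RefSeq entries on build GRCm38.p6 matched 6 of the 9 members and 2 of the 3 other arms. The prefix mmu- of the names marks the mouse and is left out where no confusion arises. They are printed to show which arms share a seed and how little separates some members, with the seed (bases 2 to 8) in capitals. The 5p arms shown all have the seed GUAAACA.

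mmu-miR-30a-5p: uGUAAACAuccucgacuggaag

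mmu-miR-30c-5p: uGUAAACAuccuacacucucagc

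mmu-miR-30e-5p: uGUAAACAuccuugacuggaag

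The 4 3p arms with a sequence fall into 2 seed groups, one for miR-30a and miR-30e and one for both miR-30c hairpins.

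mmu-miR-30a-3p: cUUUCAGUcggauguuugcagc

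mmu-miR-30e-3p: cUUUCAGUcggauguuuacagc

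mmu-miR-30c-2-3p: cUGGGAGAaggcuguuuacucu

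mmu-miR-30c-1-3p: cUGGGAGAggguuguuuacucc

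The arm miR-30f carries the same letters shifted by 1 base, so that its own bases 2 to 8 differ from those of the 5p arms.

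mmu-miR-30f: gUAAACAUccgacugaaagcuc

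Counted from the 5′ end, miR-30a-5p and miR-30e-5p differed at 1 of 22 bases (C13U, miR-30a-5p first), and so did miR-30a-3p and miR-30e-3p (G18A, miR-30a-3p first). Only a single base of each read can therefore tell one from the other. The authors' mapping barred mismatches in the first bases of a read, and bases 13 and 18 lie beyond these. It kept every best alignment, so a read may have been kept for both arms. Whether that single base decided the counts was not tested. No member had the same counts as another miRNA in all 9 libraries. The 5p arms of miR-30a and miR-30c were identical over 17 of the first 22 bases.

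The hairpins lie in clusters. On GRCm38, Mir30a (chr1:23272269-23272339, plus strand) was intergenic in GENCODE release M21, and Mir30c-2 (chr1:23291701-23291784, plus strand) lay 19361 bases further in an exon of the long noncoding gene Gm27028. Mir30c-1 (chr4:120769534-120769622, minus strand) and Mir30e (chr4:120772606-120772697, minus strand) lay 2983 bases apart in introns of Nfyc, which encodes a subunit of the transcription factor NF-Y. Because miR-30c-5p is made by both miR-30c hairpins, its count does not tell them apart, whereas their 3p arms do. Mir30f is annotated on the strand opposite Mir30e, where the mature miR-30f overlaps miR-30e-3p by 19 bases.

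The Mir30a and Mir30e hairpins are shown with both mature arms in capitals, since the balance of the arms differed between them.

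Mir30a: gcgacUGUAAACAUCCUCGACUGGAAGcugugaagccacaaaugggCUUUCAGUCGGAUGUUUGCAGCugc

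Mir30e: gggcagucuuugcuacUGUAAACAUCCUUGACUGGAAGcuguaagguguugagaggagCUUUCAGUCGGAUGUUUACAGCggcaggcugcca

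The libraries held 4992339 to 6548379 counts in the control group and 6216566 to 7833161 in the LLC group, and the 9 members took 1.95 to 3.19% of them (95% Wilson interval at most 0.0269 percentage points wide, counting error only). TMM factors, which scale libraries to each other, lay between 0.953 and 1.15 for control mice and between 0.762 (LLC 5) and 1.11 for LLC mice. CPM are counts scaled to 1000000 per library after TMM. Muscle fibre miRNAs summed to 21902 to 30875 CPM in the control and 20861 to 25266 CPM in the LLC group, with 5 of the 6 listed expressed. The summed endothelial miRNAs had 26211 to 33929 and 24162 to 29972 CPM, the leukocyte ones 639 to 747 and 521 to 681 CPM, the erythroid ones 215 to 325 and 92.4 to 220 CPM, and those of fibroblasts and smooth muscle 51131 to 67266 and 52842 to 96576 CPM. The leukocyte sum moved against most of its list, of which 3 of 4 miRNAs had a log2 fold change above 0 and 1 below. The list of fibroblasts and smooth muscle was split, with 2 above 0 and 2 below (median -0.01). All expressed miRNAs of the fibre (median -0.26), endothelial (median -0.20) and erythroid (median -0.76) lists lay below 0. No miRNA of these lists was at 0 in every library, and the part of these cell types in the miR-30 levels was not tested. In whole muscle, fewer cells of a type and less RNA per cell cannot be told apart.

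One arm held most of the family. In the control mice mmu-miR-30a-5p had 19956, 20210, 21821 and 15895 CPM, and in LLC 1, 2, 3, 5 and 6 it had 17750, 16575, 21757, 17995 and 18531 CPM. All LLC values lay inside the range of the control values, and control 4 was the lowest of the 9. By mean CPM over the 9 libraries miR-30a-5p was miRNA number 15 of the 304 expressed, at 18943 ± 2128 CPM (SD, n = 9). It made up 79.0 to 82.6% of the counts of the 5 members of the 5p arm in every library (95% Wilson interval at most 0.499 percentage points wide).

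**Figure D1:**
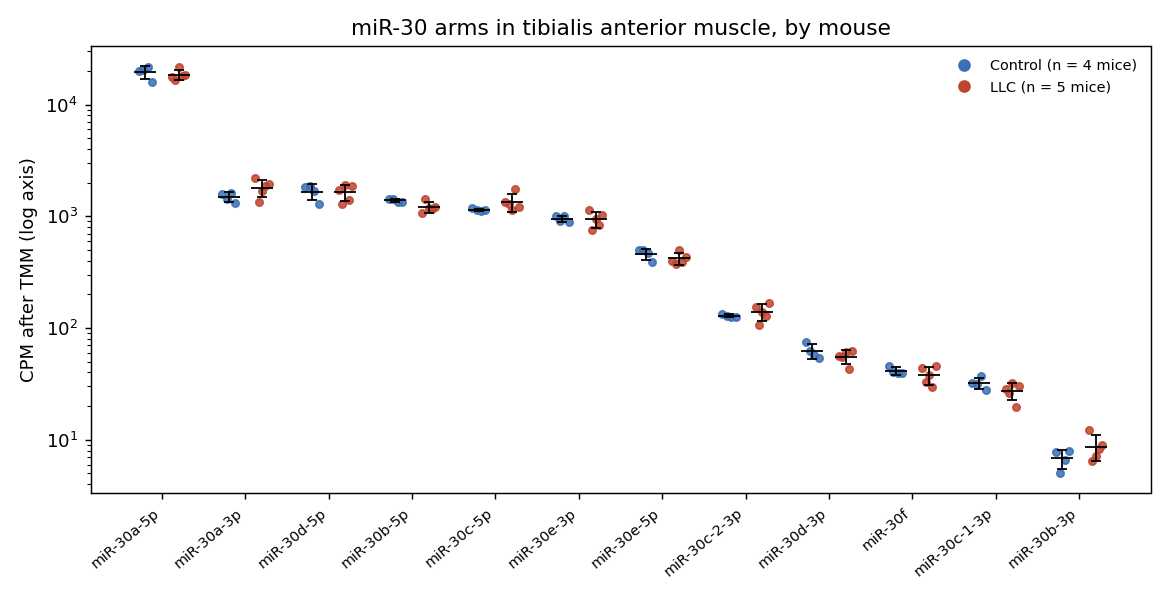
CPM after TMM of the 12 miR-30 arms in each mouse on a log axis, with the mean and SD of each group in black (4 control and 5 LLC mice). miR-30a-5p stands at 15895 to 21821 CPM, a group of 5 arms lies at 754 to 2179 CPM, and miR-30b-3p is the lowest at 5.03 to 12.3 CPM.

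Below it, 5 arms had similar levels. The means over the 9 libraries were 1666 ± 293 CPM for miR-30a-3p, 1650 ± 255 CPM for miR-30d-5p, 1290 ± 137 CPM for miR-30b-5p, 1257 ± 205 CPM for miR-30c-5p and 947 ± 116 CPM for miR-30e-3p. All mature sequences printed above are 22 or 23 bases long, so CPM needs no scaling by length, but adapters join different small RNAs unequally and levels of different arms were not calibrated.

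Some steps of this order exceeded their spread and others did not. miR-30a-5p exceeded the next arm, miR-30a-3p, by 3.52 ± 0.273 on the log2 scale (SD, n = 9 libraries), in 9 of 9 libraries. Between miR-30a-3p and miR-30d-5p the difference was 0.01 ± 0.260, and the former was higher in 5 of 9 libraries. Between miR-30b-5p and miR-30c-5p it was 0.04 ± 0.317, with this order in 7 of 9. These pairs did not differ beyond their spread between libraries.

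miR-30d-5p was above miR-30b-5p in 7 of 9 libraries, by 0.35 ± 0.299 on the log2 scale. miR-30c-5p stood above miR-30e-3p in 9 of 9, by 0.40 ± 0.312. From there down each step exceeded its spread and held in 9 of 9 libraries. miR-30e-3p was 1.11 ± 0.196 above miR-30e-5p (438 ± 52.7 CPM), which was 1.70 ± 0.224 above miR-30c-2-3p (134.9 ± 18.0 CPM). The lowest member, miR-30d-3p, had 58.4 ± 8.67 CPM and 216 to 553 counts per library.

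Variation among the 9 mice was small for most members. The SD of log2 CPM over the 9 libraries had a median of 0.19 over the 9 members and of 0.28 over the 304 expressed miRNAs. The steadiest was miR-30b-5p with 0.16, below which lay 11.2% of the expressed miRNAs, and the most variable was miR-30a-3p with 0.25, below which lay 44.1%. These are descriptions without a test, and they are not matched for level. Of the 9 members, 7 had a mean above 257 CPM, the upper quartile of the expressed miRNAs, whose median was 34.2 CPM.

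The first comparison asked whether the miR-30 arms differed between cachectic and control muscle. Calls needed a 1.5-fold difference together with an edgeR quasi-likelihood p that stayed at or below 0.05 once adjusted by Benjamini-Hochberg over the 304 expressed miRNAs. By this rule 0 of 9 members were called, against 0.00% of all expressed miRNAs. The adjusted p of the members ran from 0.296 to 0.954. In this fit 0 of 9 had an unadjusted p of at most 0.05, against 16.4% of the expressed miRNAs (50 of 304). Of the expressed miRNAs, 11.2% were lower and 5.26% higher in the LLC mice. With RLE factors, DESeq2 or no filter on low counts, miR-30a-3p had an unadjusted p below 0.05, given further below. With DESeq2, 0 of 9 members were called against 2.30% of the miRNAs, with limma voom 0 of 9 against 0.00%, and with edgeR without a filter on low counts 0 of 9 against 2.36% of 932 miRNAs. The CPM of the groups did not overlap for 0 of 9 members, against 5.92% of the expressed miRNAs (4.28% lower and 1.64% higher in the LLC mice).

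The intervals given here are those of the main edgeR fit with TMM factors. The 95% interval of each of the 9 members lay inside a 1.5-fold change in either direction (0.58 on the log2 scale), with a lowest bound of -0.47 for miR-30d-3p and a highest of 0.57 for miR-30a-3p. The latter bound lay close to the limit. The log2 fold change of miR-30a-3p was 0.28 in this fit and 0.33 with RLE factors or DESeq2, whose intervals are not given. The median log2 fold change was -0.02 over the 9 members and -0.02 over all 304 miRNAs. It was below 0 for 6 of the 9, against 53.6% of the expressed miRNAs. By arm, the median was -0.07 for the 5p members and 0.05 for the 3p members.

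**Figure D2:**
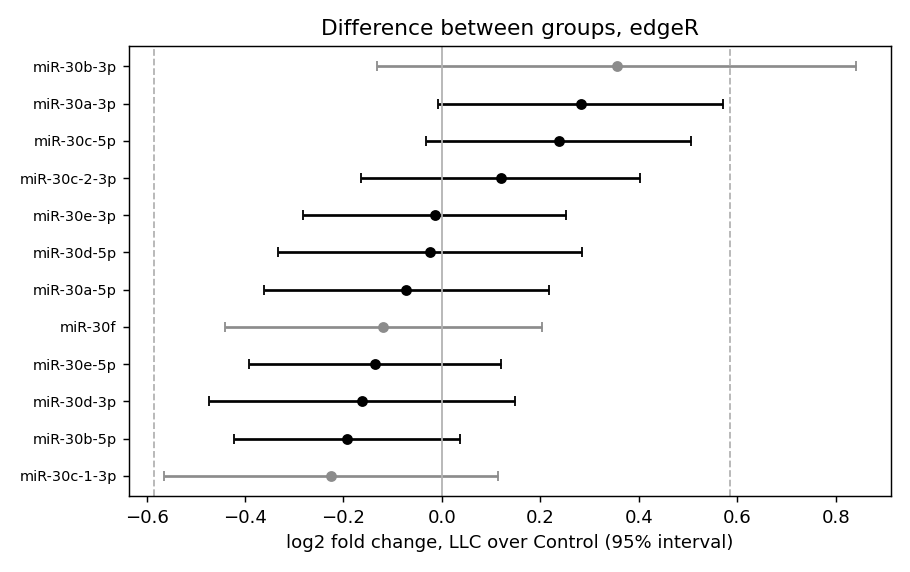
log2 fold change of LLC over control for each miR-30 arm with its 95% interval from edgeR with TMM factors (black for the 9 members, grey for the 3 other arms). The dashed lines mark a 1.5-fold change, and the intervals of all 9 members cross 0 and stay between these lines.

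Among the 5p arms, which carry the shared seed, miR-30a-5p averaged 19471 ± 2523 CPM in control muscle (SD, n = 4) against 18522 ± 1945 CPM in LLC muscle (SD, n = 5), for a log2 difference of -0.07 (95% interval -0.36 to 0.22). miR-30d-5p had 1666 ± 261 and 1638 ± 280 CPM, a log2 fold change of -0.02 whose sign turned with RLE factors, with DESeq2 and without the filter on low counts. miR-30e-5p had 461 ± 51.6 and 419 ± 50.8 CPM, a log2 fold change of -0.14 (95% interval -0.39 to 0.12). For each of these arms the groups overlapped over most of their range.

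miR-30b-5p and miR-30c-5p varied less among the control mice (SD 49.8 and 29.8 CPM) than among the LLC mice (SD 137 and 245 CPM), a description without a test. mmu-miR-30b-5p had 1421, 1437, 1344 and 1344 CPM in the control mice and 1068, 1436, 1189, 1153 and 1218 CPM in LLC 1, 2, 3, 5 and 6. LLC 2 lay within the control range and the other 4 LLC mice lay below it. The log2 fold change was -0.19 (standard error 0.108, 95% interval -0.42 to 0.04, edgeR adjusted p = 0.328). With single mice left out it ran from -0.15 without LLC 1 to -0.26 without LLC 2. The latter had an unadjusted edgeR p of 0.0202 and an adjusted p of 0.165. With library totals alone it was -0.34.

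For mmu-miR-30c-5p most LLC values lay on the other side of the control range. It had 1183, 1146, 1111 and 1134 CPM in the control mice and 1345, 1293, 1129, 1761 and 1213 CPM in LLC 1, 2, 3, 5 and 6. LLC 3 lay within the control range, the other 4 LLC mice lay above it, and LLC 5 was the highest. The log2 fold change was 0.24 (standard error 0.127, 95% interval -0.03 to 0.51, edgeR adjusted p = 0.321). With single mice left out it ran from 0.12 without LLC 5, the library with the lowest TMM factor, to 0.32 without LLC 3. The latter had an unadjusted edgeR p of 0.0309 and an adjusted p of 0.185. With library totals alone it was 0.060.

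Over the 5p arms together, the summed level averaged 24127 ± 2795 CPM among control mice (SD, n = 4) and 23139 ± 2053 CPM among LLC mice (SD, n = 5). LLC 3, with 26486 CPM, lay just above the highest control mouse (26411 CPM), and the other 4 LLC mice lay inside the control range. The pool of the shared seed was thus 0.959 times the control mean. With library totals in place of TMM factors the ratio was 0.870, where the median over the 304 expressed miRNAs also moved on the log2 scale, from -0.02 to -0.17.

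The 3p arms were the minor strands of their hairpins except in miR-30e. mmu-miR-30a-3p had 1592, 1420, 1622 and 1316 CPM in the control mice and 2179, 1340, 1692, 1879 and 1952 CPM in LLC 1, 2, 3, 5 and 6. LLC 2 lay within the control range, the other 4 LLC mice lay above it, and LLC 1 was the highest. The log2 fold change was 0.28 (standard error 0.136, 95% interval -0.01 to 0.57, edgeR adjusted p = 0.296). It was 0.13 with library totals alone. In the fit blocked on replicate number it was 0.14, informed by control and LLC mice 1 to 3 only. It was 0.33 with RLE factors (edgeR adjusted p = 0.268) and with DESeq2 (DESeq2 adjusted p = 0.267). With single mice left out it ran from 0.21 without LLC 1 to 0.37 without LLC 2. The latter had an unadjusted edgeR p of 0.00704 and an adjusted p of 0.119.

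For mmu-miR-30e-3p, which differs from it by 1 base, the control mice had 996, 915, 1011 and 887 CPM and LLC 1, 2, 3, 5 and 6 had 1145, 754, 948, 835 and 1031 CPM. The LLC mice lay on both sides of the control range, 2 above and 2 below, and the log2 fold change was -0.01 (95% interval -0.28 to 0.25), with a sign that turned with RLE factors, DESeq2 and both other filters. miR-30d-3p had 62.0 ± 9.40 and 55.4 ± 7.72 CPM, a log2 fold change of -0.16 (95% interval -0.47 to 0.15).

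The spread of miR-30c-2-3p was unequal in the groups. The control mice had 134, 128, 127 and 125.9 CPM, while LLC 1, 2, 3, 5 and 6 had 154, 107, 140, 129 and 169 CPM, and the LLC mice reached beyond the control range on both sides. The log2 fold change was 0.12 (95% interval -0.16 to 0.40), and its sign turned with library totals alone. The summed 3p members had 2631 ± 212 CPM in the control and 2946 ± 477 CPM in the LLC group, 1.12 times the control mean, or 1.01 times with library totals alone.

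The 3 arms outside the 9 had lower levels. miR-30c-1-3p had 32.2 ± 3.86 CPM (SD, n = 4) and 27.4 ± 4.90 CPM (SD, n = 5), a log2 fold change of -0.23 (edgeR adjusted p = 0.433). miR-30b-3p had 37 to 79 counts per library and a log2 fold change of 0.35 (edgeR adjusted p = 0.396, 95% interval -0.13 to 0.84). miR-30f had 41.5 ± 3.17 and 38.1 ± 7.14 CPM and a log2 fold change of -0.12 (edgeR adjusted p = 0.666). None of the 3 was called by edgeR, and their unadjusted p were 0.141 or higher.

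The next comparison concerned paired 5p and 3p arms, as the ratio of 5p to 3p counts within a library, which no scaling between libraries can change. Arms were paired where their names differ only in 5p or 3p, with miR-30c-5p over miR-30c-2-3p added. Other hairpins whose names do not pair in this way, miR-30c-1 among them, were left out. Among the 75 hairpins so paired with both arms expressed, the 5p arm was the higher one on average in 42. The arm in excess changed between libraries in 7 (39 had the 5p and 29 the 3p arm in excess in all 9).

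The miR-30 hairpins covered a wide range of this balance. miR-30b-5p exceeded miR-30b-3p 86.6 to 286 times, miR-30d-5p exceeded miR-30d-3p 23.5 to 32.7 times, miR-30a-5p exceeded miR-30a-3p 8.15 to 14.2 times, and miR-30c-5p exceeded miR-30c-2-3p 7.17 to 13.6 times. Each of these held in 9 of 9 libraries. Since both miR-30c hairpins make miR-30c-5p, its count was also set over the sum of both 3p arms, which it exceeded 6.07 to 11.8 times. Over miR-30c-1-3p alone the ratio was 29.9 to 89.2. It was 35.9 ± 4.49 (SD, n = 4) in the control and 52.2 ± 21.5 (SD, n = 5) in the LLC mice, and the groups overlapped. The ratio of miR-30b was higher than in 92.0% of the 75 hairpins.

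miR-30e was the exception in the family. Its 3p arm exceeded its 5p arm in 9 of 9 libraries, 2.08 ± 0.196 times (SD, n = 4) in the control mice and 2.26 ± 0.388 times (SD, n = 5) in the LLC mice, from 1.84 to 2.88 times in single libraries. miR-30a-5p had 40.4 to 46.8 times the counts of miR-30e-5p, while miR-30a-3p had 1.48 to 2.25 times the counts of miR-30e-3p. The 2 hairpins shown above thus differed far more in their 5p than in their 3p counts. The reason was not tested.

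**Figure D3:**
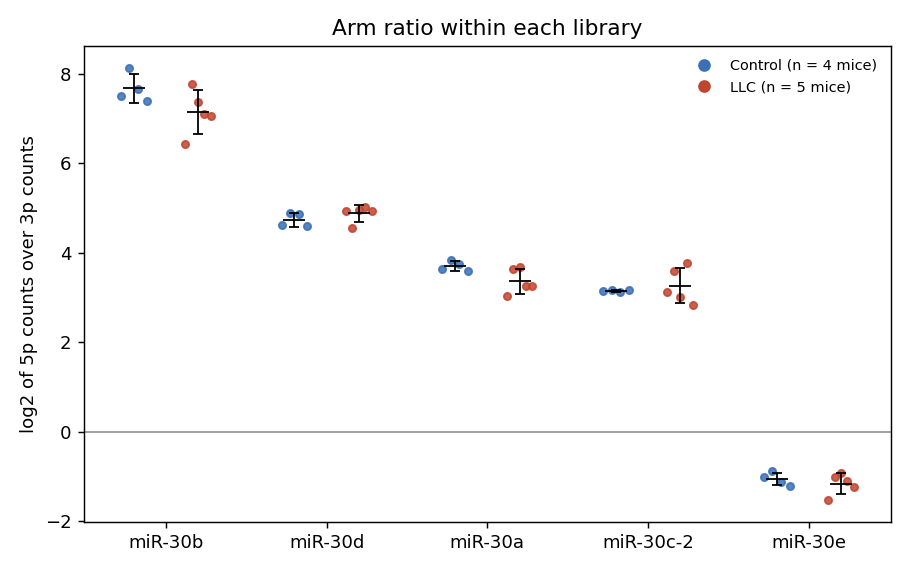
log2 of 5p over 3p counts within each library for 5 miR-30 hairpins with both arms expressed (miR-30c-1 is left out), one point per mouse, with the mean and SD of each group in black. miR-30a, miR-30b, miR-30c-2 and miR-30d lie above 0 in all 9 libraries (5p in excess) and miR-30e lies below 0 in all 9 (3p in excess).

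The arm ratios were then compared between LLC and control mice. The ratio of miR-30a was 12.5, 14.2, 13.5 and 12.1 in the control mice and 8.15, 12.4, 12.9, 9.58 and 9.49 in LLC 1, 2, 3, 5 and 6. LLC 1, LLC 5 and LLC 6 lay below all control mice, while LLC 2 and LLC 3 lay among them. The mean log2 ratio differed by -0.34, from 3.71 ± 0.106 (SD, n = 4) to 3.37 ± 0.279 (SD, n = 5), with a two-sided exact permutation p of 0.0794 and 0.340 after Benjamini-Hochberg adjustment over the 75 hairpins.

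In miR-30b the log2 ratio was 7.68 ± 0.328 in the control and 7.14 ± 0.489 in the LLC mice, a difference of -0.53 (two-sided exact permutation p = 0.0952, adjusted p = 0.340), at 37 to 79 counts of the 3p arm per library. This difference was -0.35 without LLC 1 and -0.69 without LLC 2, the latter with an exact permutation p of 0.0286 and an adjusted p of 0.238. The ratios of miR-30d, miR-30e and miR-30c-2 differed by 0.14, -0.11 and 0.12 on the log2 scale, with two-sided exact permutation p of 0.230, 0.476 and 0.548. For miR-30d the difference was 0.22 without LLC 2 (exact permutation p = 0.0286, adjusted p = 0.238) and 0.086 without control 4. In the fit blocked on replicate number, informed by control and LLC mice 1 to 3 only, it was 0.021. For miR-30e it was -0.018 without LLC 1, -0.052 without control 2 and -0.17 without LLC 3. Of these 5 hairpins, 0 had an exact p of at most 0.05, against 8.00% of the 75, and 0 had groups that did not overlap, against 1.33%. The ratio of miR-30c-1 was not among the 75 and was not tested. The smallest p that 4 against 5 mice allow is 0.00794, and the 0.0286 found without LLC 2 is the smallest for 4 against 4. After adjustment over the 75 hairpins, 1 hairpin alone at such a p could not pass, only many together. The adjusted exact test therefore had little room to call any hairpin. Over the 75 hairpins 0 passed after adjustment, with 6 at an unadjusted exact p of at most 0.05, and limma on the log2 ratios also called 0 after adjustment, with 12 (16.0%) at an unadjusted p of at most 0.05.

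The control mice were closely alike in the ratio of miR-30c-5p to miR-30c-2-3p, at 8.81, 8.93, 8.78 and 9.01, whereas LLC 1, 2, 3, 5 and 6 had 8.74, 12.1, 8.06, 13.6 and 7.17. LLC 2 and LLC 5 lay above all control mice and the other 3 below, so that the means of the groups were near each other while the spread was larger in the LLC mice. The difference of the spread was not tested.

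Counts of the members were also set against each other within each library. The count ratio separated the groups without overlap for 2 of the 36 pairs of members (5.56%), close to the 5.29% over all pairs of expressed miRNAs. Both pairs were picked out by their values and are given without a test. The ratio of miR-30b-5p to miR-30c-5p was 1.18 to 1.25 in the control mice and 0.655 to 1.11 in the LLC mice. The ratio of miR-30a-3p to miR-30e-3p was 1.60, 1.55, 1.61 and 1.48 in the control mice and 1.90, 1.78, 1.79, 2.25 and 1.89 in LLC 1, 2, 3, 5 and 6. These 3p arms differ at base 18 alone, and how reads were split between them was not tested.

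Since those 3p arms come from hairpins on chromosomes 1 and 4, the 3p arms of each cluster were summed. The 3p counts of Mir30a and Mir30c-2 were 1.64 ± 0.0465 times those of Mir30e and Mir30c-1 in the control mice and 2.01 ± 0.200 times in the LLC mice, with all 5 LLC mice above all 4 control mice, again without a test. This sum is dominated by miR-30a-3p and miR-30e-3p. Within miR-30c, miR-30c-2-3p had 4.04 ± 0.465 times the counts of miR-30c-1-3p in the control and 5.19 ± 0.998 times in the LLC mice, with 3 of the 5 LLC values beyond the highest control. The same ratio for the 5p arms, miR-30a-5p over miR-30e-5p, was 42.3 ± 3.04 and 44.3 ± 1.44, with no LLC mouse outside the control range.

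**Figure D4:**
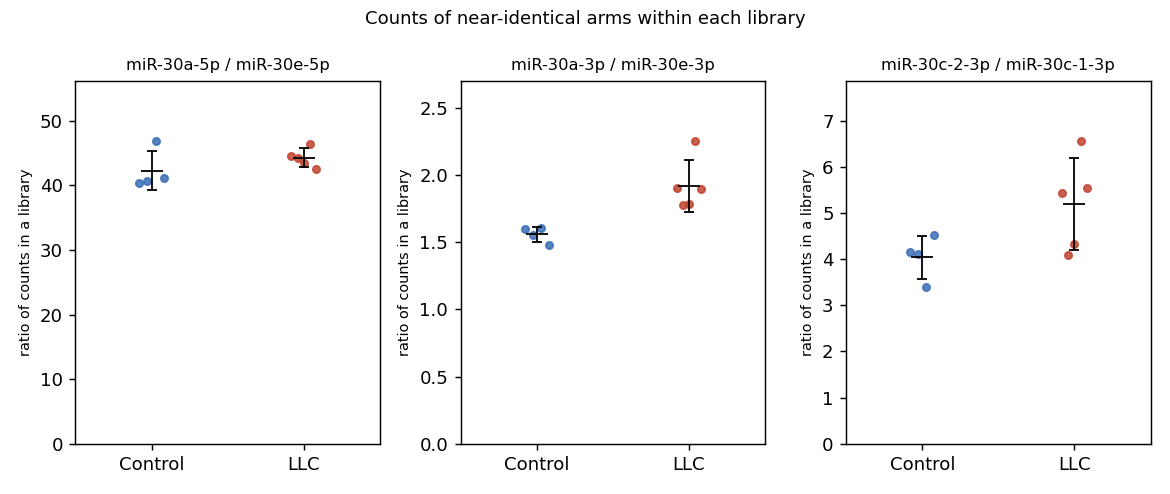
Ratios of counts within each library for 3 pairs of closely related miR-30 arms, one point per mouse with the mean and SD in black (4 control and 5 LLC mice, linear axes from 0). The groups overlap for miR-30a-5p over miR-30e-5p and for miR-30c-2-3p over miR-30c-1-3p, and do not for miR-30a-3p over miR-30e-3p (1.48 to 1.61 against 1.78 to 2.25).

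The make-up of the 2 pools followed from these ratios. Of the 5p members, miR-30d-5p held 6.98 ± 0.718%, miR-30b-5p 5.52 ± 0.812%, miR-30c-5p 5.40 ± 1.15% and miR-30e-5p 1.85 ± 0.0979% (SD, n = 9). Of the 3p members, miR-30a-3p held 55.2 to 57.6% in the control and 59.4 to 65.1% in the LLC mice, and miR-30e-3p held 35.6 to 37.2% and 28.9 to 33.4% (95% Wilson interval at most 1.77 percentage points wide). These shares restate the miR-30a-3p to miR-30e-3p ratio and are no separate result.

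**Figure D5:**
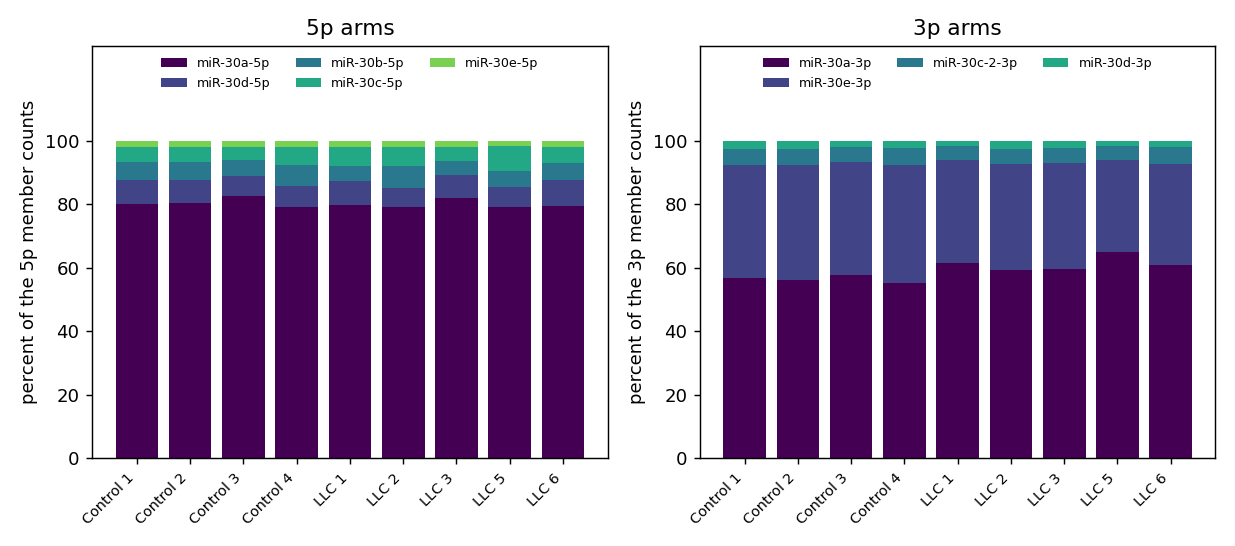
Share of each miR-30 member in the counts of the 5p members (left) and of the 3p members (right) of each library, in percent. miR-30a-5p holds 79.0 to 82.6% on the left in all 9 libraries, and miR-30a-3p holds 55.2 to 57.6% in the control and 59.4 to 65.1% in the LLC libraries on the right.

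For likeness, the log2 level of each expressed miRNA outside the family, centred on its mean over the 9 libraries, was set against the summed 5p members. The closest were miR-378b, miR-340-5p and miR-107-3p, with a root mean square difference of 0.085, 0.097 and 0.099 on the log2 scale, against a median of 0.29 over 292 miRNAs. Closest to the summed 3p members were miR-98-5p, miR-151-3p and miR-25-3p, at 0.097, 0.10 and 0.10, against a median of 0.34. The sums themselves moved by 0.13 (5p) and 0.19 (3p) around their means, so that a steady miRNA scores well by this measure.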

How the data were processed

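The authors mapped single-end 50 bp reads of the TruSeq small RNA libraries to miRBase version 21 with Bowtie (no mismatch within the first 8 bases, every best alignment kept). Their deposited counts are whole numbers per mature miRNA and library, without normalization. Whether mature or hairpin sequences were the target and how adapters were trimmed are not given in the sources used here.

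A miRNA entered the tests if any library held over 32 counts of it, which left 304. They were fitted with a quasi-likelihood F test in edgeR 4.0.16 (R 4.3.3), using TMM factors and no block, and adjusted by Benjamini-Hochberg over all 304. CPM use library totals over all miRNAs times TMM factors. Arm ratios are log2 of counts plus 0.5, compared by two-sided exact permutation over all splits into 4 and 5 mice. Alternatives were RLE factors, library totals alone or without the 5 most abundant miRNAs, DESeq2 1.42.0, limma 3.58.1, other filters, other prior counts, a replicate block and leaving out each mouse. Total counts of 4992339 to 7833161 put 3 counts at 0.383 to 0.601 CPM. The lowest chi-square per degree of freedom between libraries of a group was 124, so none was a copy. Named were the 9 members, the 3 other arms and the 3 miRNAs closest to each sum, and miR-384-5p was added after its values were seen. Members and lists were chosen with earlier results of these data known. Sequences are from RefSeq (GRCm38.p6) and positions from GENCODE M21. Figures were drawn in Python 3.11.15 with matplotlib 3.10.9.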

Additional observations from a re-analysis of the deposited data

Results flagged for a closer look

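In 38 sets of 4 or 5 values (each miR-30 arm, arm ratio and sum in each group), 2 held a library far from the others of its group by Dixon's test, where chance gives about 5%. The level of miR-30f in control 1, 46.2 CPM, stood above the other control mice, which had 39.5 to 40.5 CPM. The log2 arm ratio of miR-30d in LLC 2, 4.55, stood below the other LLC mice, which had 4.92 to 5.03.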

How the results depend on the processing

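In each of the 18 fits, 0 of the 9 members were called, and 6 members kept the direction of their log2 fold change in all of them. The exceptions had values near 0. miR-30d-5p turned from -0.02 to 0.018 with RLE factors, 0.018 with DESeq2 and 0.020 without a filter, and ranged from -0.11 to 0.049 with each mouse left out. miR-30e-3p turned from -0.01 to 0.030 with RLE factors, 0.030 with DESeq2, 0.031 without a filter and 0.0049 with at least 10 counts in every library, and ranged from -0.094 to 0.056 with each mouse left out. miR-30c-2-3p turned from 0.12 to -0.019 with library totals alone. The log2 difference of the summed 5p members moved from -0.06 to -0.21 with library totals alone, and that of the summed 3p members from 0.15 to -0.004. The change of factors shifts both sums alike. With TMM factors the sums spread by 0.13 (5p) and 0.19 (3p) around their means. With library totals alone the 5p sum spread more, with an SD of 3967 CPM in the control and 4637 CPM in the LLC mice. The arm ratio difference of miR-30c-2 was -0.0060 without LLC 5 and up to 0.23 without another mouse. No miR-30 arm ratio difference passed the threshold after adjustment in any setting. For the exact test the few mice nearly fixed this in advance. Of the 304 expressed miRNAs, 0 were called by edgeR and 7 by DESeq2, and without a filter 22 of 932 were. With each mouse left out the count was 0 to 8 (8 without LLC 3 and 1 without LLC 1). Controls and LLC mice 1 to 3 share numbers but are different animals, and their deviations correlated by -0.25 to -0.09 over miRNAs. With the replicate number as a block, 0 members and 0 miRNAs were called, and the arm ratio difference of miR-30a was -0.30. Members down to 216 counts per library were limited by the spread between 9 mice, and the 37 to 79 counts of miR-30b-3p also by counting.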

Other observations

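One miRNA outside the family carries the seed of the miR-30 5p arms in the RefSeq table, miR-384-5p, and was picked out for this after its values were seen. It had 5 counts in the 4 control libraries together and 16 in the 5 LLC libraries together, with 0 to 9 per library, which is too few for a comparison.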
